A study of Homo sapiens with 6 samples.

Results

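The aminoacyl-tRNA synthetases of SW480 cells were examined as 2 classes, 20 genes for enzymes of the cytosol and 16 genes for enzymes of the mitochondrion (symbols ending in 2). The members were taken by symbol, and all 36 were found among the 12982 genes of the table. SW480 is an established human colorectal adenocarcinoma line. The cells received DMSO, the solvent, or MPM-1, a fluorescent probe that collects in mitochondria and that the labels call WT4, for 24 h. There were 3 libraries per treatment, the genotype of every sample is given as WT, and the dose of MPM-1 in this experiment is not given in the sources used here. Since nothing states that the libraries came from separate cultures, p-values measure the spread between these libraries, which may be technical.

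Each synthetase joins 1 kind of amino acid to its tRNA. Nuclear genes encode both classes, and the mitochondrial enzymes are imported to serve the ribosomes inside the organelle, which translate the proteins encoded by mitochondrial DNA. GARS and KARS encode the enzyme of both compartments for glycine and lysine, and EPRS carries the activities for glutamate and for proline in 1 chain. Uncharged tRNA activates the kinase GCN2 (gene EIF2AK4), which leads to translation of the transcription factor ATF4, and a number of cytosolic synthetase genes are known ATF4 targets.

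Total counts ranged from 32095456 to 40269820 in the DMSO libraries and from 31733667 to 35403841 in those with MPM-1. Of 10 epithelial markers 9 were in the table, at mean levels of 20.8 to 2124 FPKM in DMSO (fragments per kilobase of transcript, scaled to sequencing depth, the authors' value of level per length). By the rule given below, 5 of these 9 epithelial markers rose (55.6%) and 3 fell (33.3%) with MPM-1, against 27.7% and 28.8% of all genes. The rises were in KRT18 and KRT19 (log2 fold change 0.89 each), CDH1 (0.82), LGALS4 (0.50) and KRT8 (0.42). The falls were in VIL1 (-0.88), CDX1 (-0.98) and the transcription factor CDX2 (-2.20, from 20.8 to 4.07 FPKM), and EPCAM did not pass. Of 9 markers of leukocytes, fibroblasts, endothelium and hepatocytes, only CD68 and COL1A1 were in the table. CD68 went from 37.2 FPKM in DMSO to 71.2 FPKM after MPM-1 and COL1A1 from 0.468 to 0.0942 FPKM, and what part such cells or genes had in the results was not tested. The genes encoded by mitochondrial DNA took 8.28 to 9.11% of counts in DMSO and 1.95 to 2.35% after MPM-1.

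Most cytosolic members rose and most mitochondrial members fell. A gene was taken to rise or fall at an adjusted p under 0.05 from edgeR's quasi-likelihood test over all genes, a rule met by 56.5% of all genes, 27.7% for rises and 28.8% for falls. Of the 20 cytosolic genes 14 rose, 1 fell and 5 did not pass. Of the 16 mitochondrial genes 1 rose, 14 fell and 1 did not pass. The median log2 fold change was 0.61 in the cytosolic class and -0.68 in the mitochondrial class, against -0.026 over all genes. In bulk RNA, fewer cells of a type and less RNA per cell cannot be told apart. When the genes encoded by mitochondrial DNA were left out of the scaling, the counts were again 14, 1, 1 and 14.

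As a share of all counts, the cytosolic genes together held 0.315%, 0.325% and 0.317% in the DMSO libraries and 0.453%, 0.485% and 0.444% in the MPM-1 libraries. For the mitochondrial genes these shares were 0.0563%, 0.0591% and 0.0606% in DMSO and 0.0372%, 0.0416% and 0.0395% after MPM-1. The treatments did not overlap in either class. The summed FPKM of the cytosolic class was 4.92 to 5.24 times that of the mitochondrial class in DMSO and 10.1 to 10.9 times after MPM-1.

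Levels differed between the classes before treatment. In DMSO the mean FPKM of a cytosolic gene lay between 18.4 and 160 (median 44.5), and that of a mitochondrial gene between 2.40 and 39.4 (median 9.11). All 3305 genes of the table within the cytosolic range of levels had a median log2 fold change of 0.032, with 35.4% higher and 29.3% lower. The 7852 genes within the mitochondrial range had a median of -0.017, with 28.7% higher and 29.2% lower. Both medians were closer to 0 than those of the classes.

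**Figure D1:**
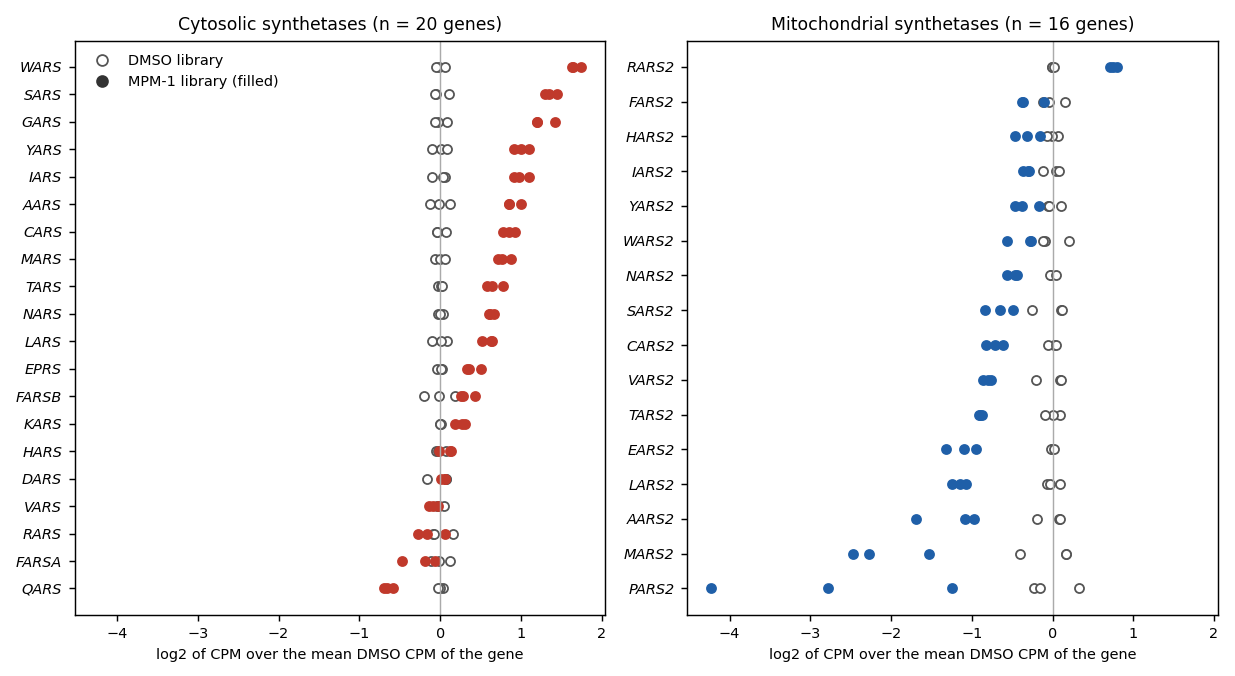
Each row is 1 synthetase gene, and the horizontal axis gives the log2 of its CPM (counts scaled to library size, after TMM scaling) in a library over the gene's mean CPM in DMSO. Open points are the 3 DMSO libraries and filled points the 3 MPM-1 libraries. In 14 of 20 cytosolic genes all MPM-1 points lie to the right of the DMSO points, and in 14 of 16 mitochondrial genes all lie to the left, with RARS2 and QARS the exceptions to their class.

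In 14 cytosolic genes every MPM-1 library lay above every DMSO library in CPM, and in 14 mitochondrial genes every one lay below. Over all genes tested this held for 31% (above) and 33.3% (below). Among cytosolic genes the largest rise was in WARS, the tryptophanyl-tRNA synthetase, which is also known as an interferon-inducible gene. WARS had 34.5, 37.5 and 34.4 FPKM in DMSO and 110, 109 and 101 FPKM after MPM-1. All 3 treated libraries were near 3 times the control level, and the counts gave a rise of 1.68 on the log2 scale (standard error 0.074, adjusted p = 5.01e-07). The exons of WARS share 287 bases with WDR25 on the other strand (log2 fold change 1.03, 4.67 FPKM in DMSO), so reads could have been exchanged if the counting ignored strand.

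SARS, for serine, was the most abundant synthetase per length. It had 168, 156 and 155 FPKM in DMSO and 358, 400 and 354 FPKM after MPM-1. The treatments were far apart, and the rise was 1.37 on the log2 scale (standard error 0.077, adjusted p = 1.50e-06). GARS, for glycine in both compartments, had 66.0, 64.9 and 63.9 FPKM in DMSO and 150, 134 and 131 FPKM after MPM-1. The control libraries lay close together, and GARS rose by 1.28 on the log2 scale (standard error 0.087, adjusted p = 3.95e-06).

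YARS (tyrosine) and IARS (isoleucine) rose 2.01-fold and 2.00-fold. With WARS, SARS and GARS they were the 5 cytosolic genes that also met the stricter rule, an adjusted p under 0.01 together with a change of 1 or more on the log2 scale, which 14.3% of all genes met in either direction and 5.58% for rises. YARS (1.01) and IARS (1.00) lay just inside that threshold and AARS, for alanine, just outside it at 0.90. YARS and IARS were under it with library size alone (0.86 and 0.85), with upper quartile scaling (0.91 for each) and with limma on FPKM (at most 0.86 and 0.83). YARS was also under it without DMSO replicate 3 (0.96) or MPM-1 replicate 1 (0.97), and IARS without DMSO replicate 1 (0.95) or MPM-1 replicate 2 (0.97), or when only genes with a mean of at least 50 counts were tested (0.997). CARS (cysteine) followed with 0.85, MARS (methionine) with 0.79, TARS (threonine) with 0.67, NARS (asparagine) with 0.63, LARS (leucine) with 0.60 and EPRS with 0.40. In these 7 genes the adjusted p was at most 0.00152. MARS shares 355 exon bases with DDIT3 on the other strand, and DDIT3 rose by a log2 fold change of 2.98, from 44.6 to 317 FPKM. How far reads of DDIT3 entered the count of MARS was not tested.

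The smallest rises were in FARSB, the beta chain of the phenylalanine enzyme (0.33, standard error 0.10, adjusted p = 0.0235), and in KARS (0.25, standard error 0.068, adjusted p = 0.0103). Both calls depended on the scaling. With scaling by library size alone the log2 fold changes were 0.17 (adjusted p = 0.214) and 0.10 (adjusted p = 0.218). When single libraries were left out, FARSB also did not pass without the first (0.24) or the second (0.32) of the DMSO libraries or without the second MPM-1 library (0.30). FARSA, the alpha chain of the same enzyme, was at -0.23 on the log2 scale (standard error 0.11, adjusted p = 0.0986), passing only at -0.30 without MPM-1 replicate 2 among the fits that left out 1 library. FARSA also passed as lower with library size alone (-0.38, adjusted p = 0.0172), with upper quartile scaling (-0.33, adjusted p = 0.0259) and in all 4 fits of limma to log2(FPKM + pseudocount). KARS shares 176 exon bases with TERF2IP on the other strand, and TERF2IP rose (log2 fold change 0.70) from 40.6 to 59.4 FPKM. How far reads of TERF2IP entered the count of KARS was not tested.

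Scaling by library size alone moved the median of all genes from -0.026 to -0.18 and the share of higher genes among all calls from 49% to 34.7%. There 12 cytosolic genes rose and 3 (QARS, FARSA and VARS) fell, and 1 mitochondrial gene rose and 15 fell. The class medians were then 0.46 for the cytosolic and -0.83 for the mitochondrial class, both shifted down with the median of all genes.

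QARS, for glutamine, was the only cytosolic member that fell. It had 83.1, 95.4 and 94.5 FPKM in DMSO and 55.1, 54.8 and 45.6 FPKM after MPM-1. The groups were well separated, with a change of -0.64 on the log2 scale (standard error 0.070, adjusted p = 6.00e-05). There is no separate mitochondrial glutaminyl-tRNA synthetase, because mitochondria first charge this tRNA with glutamate through EARS2 and then amidate it. RARS (arginine, -0.12), VARS (valine, -0.081), DARS (aspartate, 0.039) and HARS (histidine, 0.081) did not pass. Their standard errors were between 0.070 and 0.11, and DARS and HARS changed sign with scaling by library size alone. VARS passed as lower with library size alone (-0.23, adjusted p = 0.0169), with upper quartile scaling (-0.18, adjusted p = 0.0498) and in all 4 fits of limma to FPKM.

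**Figure D2:**
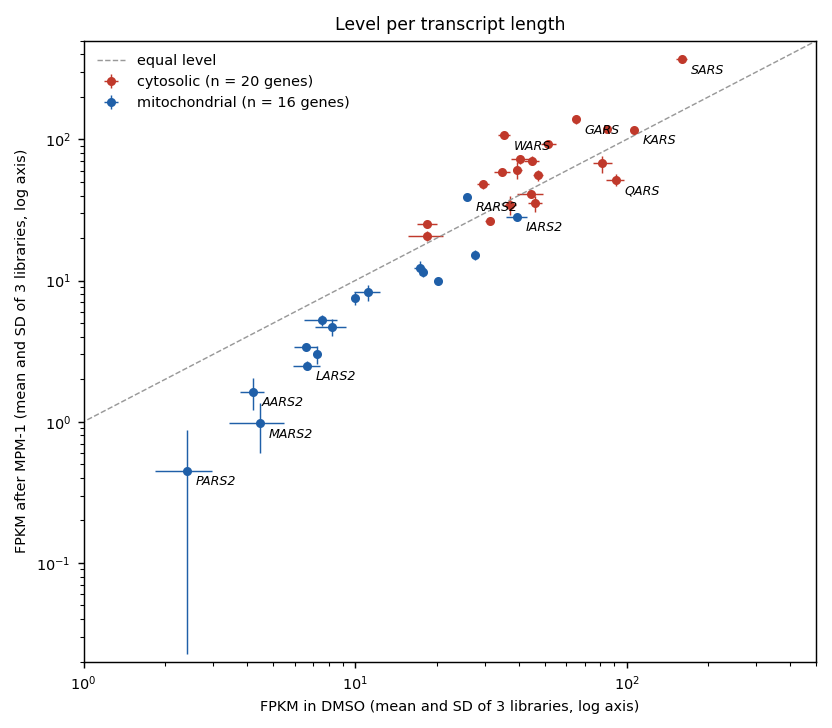
The mean FPKM of each synthetase in DMSO (horizontal, log axis) is set against that after MPM-1 (vertical, log axis), with bars for the SD of 3 libraries and a dashed line for equal levels. SARS is the most abundant at 160 FPKM in DMSO and 371 FPKM after MPM-1, and PARS2 the least at 2.40 and 0.450 FPKM.

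By known features of the enzymes, 5 of the 8 cytosolic members that sit in the multisynthetase complex rose and 1 fell (median log2 fold change 0.33), and 9 of the 12 others rose and none fell (median 0.76). Of 13 cytosolic genes commonly listed as ATF4 targets 12 rose, VARS being the exception, with a median of 0.85. Of the other 7, 2 rose and 1 fell, with a median of 0.039. No source is given for this listing, and lists were chosen with earlier results of these data known. The split is therefore a description and no separate support for a role of ATF4. By the fold of the catalytic domain, 6 of 9 cytosolic class I genes (median 0.79) and 7 of 10 class II genes (median 0.48) rose. Over all genes 27.7% rose and 28.8% fell. None of these differences between groups of members was tested. EPRS has both folds and was not counted there.

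Since 14 of the 20 cytosolic genes rose, the promoter windows of RefSeq (GRCh38.p14, 250 bases before to 50 bases after a transcript start) were searched for the C/EBP-ATF response element, the composite site bound by ATF4, as TGATGNAA on either strand. Windows were matched for 30 members, 16 cytosolic and 14 mitochondrial. AARS2, VARS2, DARS, LARS, VARS and YARS were not matched. The element was present for 7 of the 16 cytosolic genes (43.8%) and 1 of the 14 mitochondrial genes (7.14%), against 4.46% of the 27305 genes with a window. That background includes genes outside the 12982 tested, and the share among the tested genes alone was not computed. All 7 cytosolic genes with a match rose (median log2 fold change 0.85), as did 5 of the 9 without one (median 0.25). Over all genes tested 27.7% rose, and the share among all genes with the element was not computed. WARS and SARS, the genes with the largest rises, had no match in their windows. The sites are printed below in the direction of the gene, with the element in capitals, to show how alike their letters are.

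AARS: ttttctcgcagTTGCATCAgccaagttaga
CARS: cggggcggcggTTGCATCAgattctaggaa
GARS: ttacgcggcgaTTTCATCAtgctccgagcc
IARS: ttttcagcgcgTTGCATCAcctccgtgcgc
MARS: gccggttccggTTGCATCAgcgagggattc
NARS: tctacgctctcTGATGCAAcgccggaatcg
TARS: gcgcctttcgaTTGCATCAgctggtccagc

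In 6 of the 7 the element read TTGCATCA on 1 of the strands, and GARS was the exception. The stretches lie on GRCh38 at chr16:70289675-70289704 (AARS, minus strand), chr11:3057407-3057436 (CARS, minus), chr7:30594834-30594863 (GARS, plus), chr9:92293692-92293721 (IARS, minus), chr12:57488053-57488082 (MARS, plus), chr18:57621804-57621833 (NARS, minus) and chr5:33440956-33440985 (TARS, plus). Relative to the transcript start, the first base of the element was 187 bases upstream in AARS, 33 in GARS, 13 in IARS, 4 in MARS and 2 in CARS, and 2 and 14 bases downstream in TARS and NARS. The 1 mitochondrial match was in YARS2, which fell, 197 bases upstream. A match of letters is a description and no evidence of binding.

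**Figure D3:**
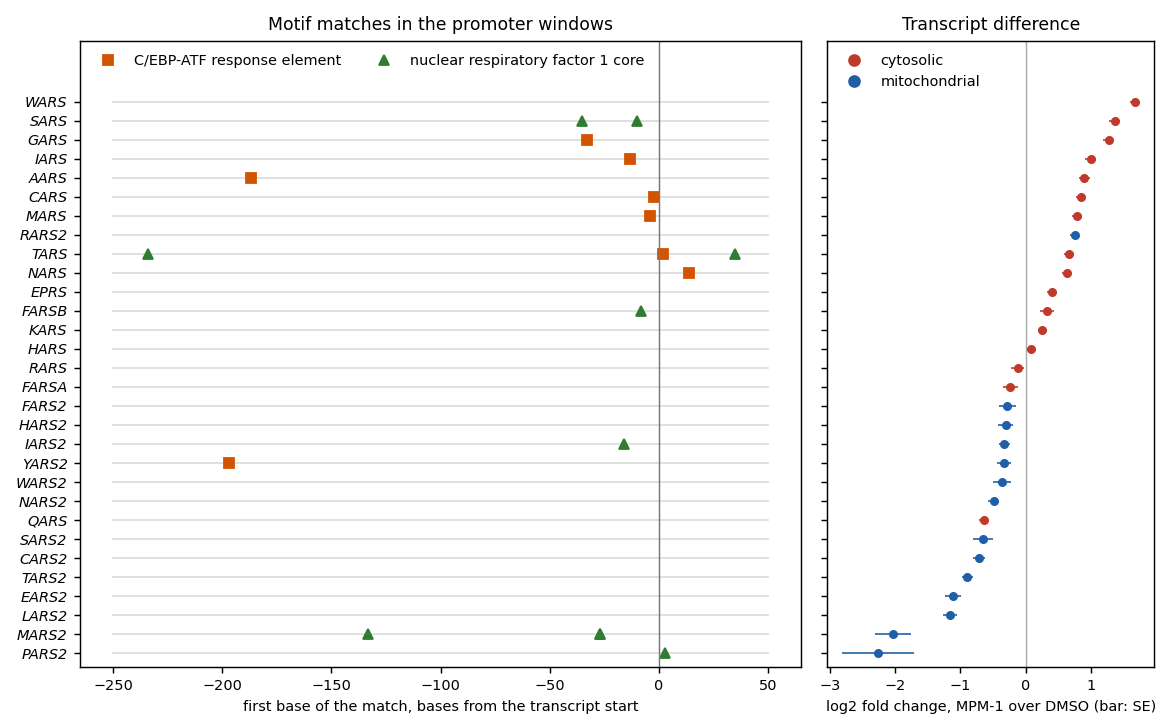
Each row is 1 of the 30 synthetase genes with a promoter window, ordered by log2 fold change. The left panel gives the position of each motif match in bases from the transcript start (squares, C/EBP-ATF response element, and triangles, nuclear respiratory factor 1 core, with the same site drawn at 2 distances where a gene has 2 starts), and the right panel the log2 fold change with its standard error. The 7 cytosolic squares all stand beside genes that rose, and the square of YARS2 beside a gene that fell. Triangles stand beside PARS2, MARS2 and IARS2, which fell, and beside SARS, TARS and FARSB, which rose.

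Among the mitochondrial genes, PARS2 (proline) had the largest fall. Its counts were 155, 299 and 198 in DMSO and 9, 72 and 27 after MPM-1, or 1.99, 3.04 and 2.18 FPKM against 0.113, 0.930 and 0.306 FPKM. Relative to their mean, the treated libraries differed among themselves by more than those of any other member, and the change of -2.27 on the log2 scale had a standard error of 0.55 (adjusted p = 0.00623). With single libraries left out the change of PARS2 ranged from -3.28 (without MPM-1 replicate 2) to -1.81 (without MPM-1 replicate 1), and with limma on log2(FPKM + 1) it was -1.26. MARS2 (methionine) had 3.28, 5.05 and 5.04 FPKM in DMSO and 0.698, 1.40 and 0.820 FPKM after MPM-1, or -2.04 on the log2 scale (standard error 0.27, adjusted p = 2.10e-04). MARS2 has a single exon and PARS2 has 2 (GENCODE release 29, overlapping exons merged), the fewest of the 36 genes.

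AARS2 (alanine), LARS2 (leucine) and EARS2 (glutamate) fell by 1.21, 1.16 and 1.11 on the log2 scale. These 5 mitochondrial genes met the stricter rule, which 8.75% of all genes met for falls. PARS2 did not meet it without DMSO replicate 1 (-2.37, adjusted p = 0.0137), 2 (-2.08, adjusted p = 0.0262) or 3 (-2.34, adjusted p = 0.0137) or without MPM-1 replicate 3 (-2.06, adjusted p = 0.0289), and AARS2 was at -0.99 with limma on log2(FPKM + 1). LARS2 had 5.79, 6.88 and 7.26 FPKM in DMSO and 2.46, 2.69 and 2.34 FPKM after MPM-1. Its groups were far apart relative to their spread (standard error 0.11, adjusted p = 2.09e-05). TARS2 (threonine) had 20.9, 20.3 and 19.5 FPKM against 9.79, 10.2 and 10.0 FPKM, the narrowest relative spread after MPM-1 in the class.

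The other falls were smaller. TARS2, VARS2 (valine), CARS2 (cysteine), SARS2 (serine) and NARS2 (asparagine) had log2 fold changes of -0.90, -0.81, -0.71, -0.65 and -0.49, with adjusted p of at most 0.00567. VARS2 shares 1858 exon bases with GTF2H4 on the same strand (log2 fold change -0.27, adjusted p = 0.0684). SARS2 shares 1492 bases with AC011455.2 on the same strand and 349 with MRPS12 on the other strand. MRPS12 fell (log2 fold change -0.72) from 79.7 to 43.3 FPKM, and how far its reads entered the count of SARS2 was not tested. The counts of VARS2 and SARS2 are therefore uncertain. WARS2 (-0.36), YARS2 (-0.33), IARS2 (-0.32) and HARS2 (-0.31) fell least, and FARS2 (-0.28, standard error 0.13, adjusted p = 0.103) did not pass. FARS2 passed as lower with library size alone (-0.43, adjusted p = 0.0284), with upper quartile scaling (-0.37, adjusted p = 0.0427) and in all 4 fits of limma to FPKM.

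Of these, the calls of WARS2, YARS2 and HARS2 were lost in several fits that left out 1 library. WARS2 did not pass without DMSO replicate 2 (-0.42) or 3 (-0.25), or without MPM-1 replicate 1 (-0.40), 2 (-0.25) or 3 (-0.39). HARS2 did not pass without DMSO replicate 1 (-0.27), 2 (-0.31) or 3 (-0.34), or without MPM-1 replicate 1 (-0.29) or 3 (-0.22). YARS2 did not pass without DMSO replicate 1 (-0.28) or without MPM-1 replicate 1 (-0.25) or 2 (-0.28). WARS2 also did not pass with the size factors of DESeq2 in the edgeR fit (-0.34, adjusted p = 0.0564), nor HARS2 with DESeq2 itself (-0.29, adjusted p = 0.0546), which left 13 mitochondrial falls in each. The direction of each was negative in all of these fits.

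RARS2, for arginine, was the only mitochondrial member that rose. It had 25.1, 25.9 and 26.3 FPKM in DMSO and 37.2, 41.3 and 38.9 FPKM after MPM-1. The 2 groups did not overlap, and RARS2 rose by 0.75 on the log2 scale (standard error 0.071, adjusted p = 2.44e-05).

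The core motif of nuclear respiratory factor 1, a known regulator of nuclear genes for mitochondria, was searched in the same windows, on either strand, as GCGC, any base and TGCGC. It was present for 3 of 14 mitochondrial genes (21.4%) and 3 of 16 cytosolic genes (18.8%), against 6.98% of all genes with a window, tested here or not. The 3 mitochondrial genes were PARS2, MARS2 and IARS2, and MARS2 held it at 2 places. The MARS2 sites are shown because this gene had the more precise of the 2 largest falls. The core that lies 27 bases upstream of the start reads alike on both strands.

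MARS2, 133 bases upstream: cgtgcggacgGCGCAGGCGCgggcggggcg
MARS2, 27 bases upstream: cgacccggctGCGCATGCGCctctcacacg

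These stretches lie at chr2:197705226-197705255 and chr2:197705332-197705361 on the plus strand of GRCh38. The cytosolic genes with the core, SARS, TARS and FARSB, rose, so the matched genes of the 2 classes went in opposite directions.

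For 14 amino acids both a cytosolic and a mitochondrial member were present, and their ratio within each library does not depend on the scaling between libraries. The cytosolic gene had the higher log2 fold change for 13 of the 14, arginine being the exception. For these 13 the log2 ratio of cytosolic to mitochondrial CPM was higher in every MPM-1 library than in every DMSO library, and for arginine it was lower in every one. Among all single genes, 31% lay above and 33.3% below in this way, and the share among pairs of other genes was not computed. With 3 libraries against 3, the smallest p of a two-sided exact permutation test is 0.1, which each pair had, and Benjamini-Hochberg adjustment over the 14 pairs left it at 0.1. The change in the log2 ratio had a median of 1.45 over the pairs. From log2(FPKM + pseudocount) in place of log2 CPM, with pseudocounts of 1, 0.1 and 0.01, the ratios did not overlap in 13 of the 14 pairs.

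The largest change was for methionine, where the log2 ratio of MARS to MARS2 was 3.65, 3.13 and 3.19 in DMSO and 6.52, 5.70 and 6.27 after MPM-1. Every treated library was well above the highest control. For alanine (AARS to AARS2) the values were 2.93, 2.78 and 2.95 against 5.57, 4.82 and 4.70, and MPM-1 replicate 1 stood above the other treated libraries. Tryptophan (WARS to WARS2) and serine (SARS to SARS2, whose count is uncertain for its shared exon bases) followed with changes of 2.04 and 2.02. In these 4 pairs the cytosolic gene rose and the mitochondrial gene fell, though the call of WARS2 was lost in several fits that left out 1 library. The same directions held for cysteine, isoleucine, leucine, asparagine, threonine and tyrosine.

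At the other end, the log2 ratio for phenylalanine (the mean of FARSA and FARSB to FARS2) was 2.07, 2.01 and 1.87 in DMSO and 2.27, 2.27 and 2.38 after MPM-1, and the gap between the groups was about as wide as the spread within DMSO. HARS and HARS2 adjoin each other on chromosome 5 (140673904 to 140691862 on the minus strand and 140691426 to 140699318 on the plus strand) and share 437 exon bases, so that their counts are uncertain. Their log2 ratio was 1.64, 1.58 and 1.68 against 1.94, 1.91 and 2.22, so that the neighbours differed in response by 0.39 on the log2 scale. The ratio of RARS to RARS2 was 2.06, 1.82 and 1.81 in DMSO and 0.919, 1.15 and 0.983 after MPM-1, a change of -0.88.

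**Figure D4:**
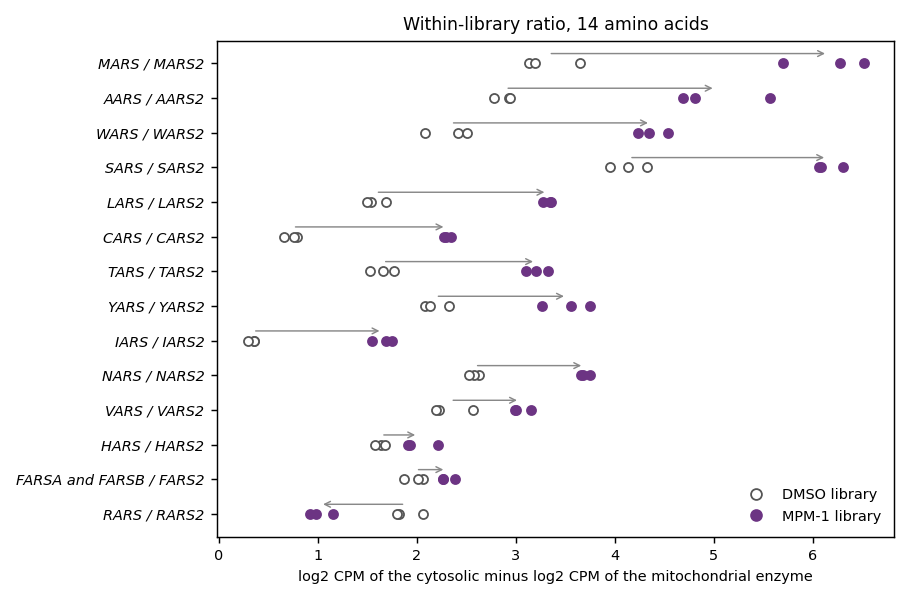
For each of 14 amino acids the horizontal axis gives the log2 CPM of the cytosolic minus that of the mitochondrial synthetase, with open points for DMSO libraries, filled points for MPM-1 libraries and an arrow from the DMSO mean to the MPM-1 mean. The points of the treatments do not overlap in any of the 14 rows, and only the arrow for arginine points to lower ratios.

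Measured per length, the cytosolic gene was the more abundant of each pair in DMSO. The ratio of FPKM was close to 1 for isoleucine (1.03) and cysteine (1.07) in DMSO and 2.55 and 3.19 after MPM-1. For serine it went from 19.5 to 79.6, for methionine from 10.2 to 76.0 and for alanine from 8.30 to 37.0. For arginine it went from 3.15 to 1.72. EPRS, which serves 2 amino acids, rose 1.32-fold while EARS2 and PARS2 fell to 0.463 and 0.207 of the DMSO level.

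The partners of the synthetases were then examined by compartment. Of the 3 scaffold proteins of the cytosolic multisynthetase complex, AIMP1 (0.27) and EEF1E1 (0.26) rose and AIMP2 had a log2 fold change of 0.13 (adjusted p = 0.515). Of 4 genes that amidate or formylate charged mitochondrial tRNA, GATC (0.38) and QRSL1 (0.23) rose and GATB (-0.49) and MTFMT (-0.81), the formylase for the initiator methionine, fell. QRSL1, GATB and GATC encode the subunits of 1 amidotransferase and did not all move in the same direction.

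Elongation factor 1A and its mitochondrial counterpart TUFM carry charged tRNA to the ribosome, and further factors exchange their nucleotide. Of 5 cytosolic genes, the exchange factor subunit EEF1B2 (1.06), the carrier EEF1A1 (0.91, a gene with many near-identical processed copies), its paralog EEF1A2 (0.50) and the exchange factor subunit EEF1G (0.50) rose, and EEF1D, another such subunit, had -0.11 (adjusted p = 0.222). The mitochondrial TUFM had 260, 252 and 240 FPKM in DMSO and 155, 148 and 150 FPKM after MPM-1. It fell by 0.58 on the log2 scale, and TSFM, its exchange factor, by 0.79.

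In a list of ATF4, kinases that act before it and genes of its response, 31 of 33 genes were in the table. Of these 23 rose (74.2%) and 3 fell (9.68%), against 27.7% and 28.8% of all genes (median log2 fold change 0.86). The largest rises were in DDIT3 (2.98), PPP1R15A (2.50) and ASNS (2.27), and ATF4 itself had 233, 274 and 230 FPKM in DMSO and 463, 414 and 398 FPKM after MPM-1 (1.04, adjusted p = 1.31e-05). The falls were in GCN1 (-0.65), PSPH (-0.45) and EIF2AK4, the gene of GCN2 (-0.36, adjusted p = 0.00457). The other kinase genes of the list, EIF2AK1 (0.16), EIF2AK2 (0.20) and EIF2AK3 (0.21), did not pass. Transcript levels do not measure kinase activity, and whether GCN2 or another kinase was active was not tested. What links the transcript levels of this list to those of the synthetases was not tested.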

How the data were processed

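RNA of 6 SW480 libraries (3 DMSO, 3 MPM-1, 24 h, mRNA library kit) was sequenced. The authors deposited 1 table with whole-number counts and FPKM per gene and library, and also the log2 ratio and FDR (adjusted p-value) of their own comparison, not used here. The submitters' processing notes name HISAT2, DESeq2 and the mouse build mm10. The identifiers are human, and the counting, annotation and strand setting are not given in the sources used here. Every gene of the table had at least 115 counts over the 6 libraries, so lower genes were not analysed here. Per-sample columns left out numbered 0.

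Counts were tested in R 4.3.3 with edgeR 4.0.16 (quasi-likelihood, TMM scaling, no covariates, Benjamini-Hochberg over 12982 genes). Log CPM used a prior count of 2. Calls used an adjusted p under 0.05, or an adjusted p under 0.01 with a change of 1 or more on the log2 scale. In simulated data on the same 12982 genes, 189 of 200 genes changed by 1 on the log2 scale were recovered. Every simulated gene had the common dispersion of 0.0231, and only these 200 changed, equally often up and down. In the data 56.5% of genes were called and the spread differed between genes. The recovery therefore does not give the power of the real comparison. Positions came from GENCODE release 29 and promoter windows from RefSeq. All members were named. Of the other lists, written from general knowledge, the 3 largest called rises and falls were named, with ATF4, DDIT3 and EIF2AK4. Genes that overlap a member, cell type markers, EIF2AK1, EIF2AK2, EIF2AK3 and the remaining genes of lists of up to 7 fall outside this rule. Members and lists were chosen with earlier results of these data known. DESeq2 1.42.0, limma 3.58.1 on log2(FPKM + pseudocount), other scalings, a replicate block and each library left out were alternatives. Reads carried no stated molecular identifiers, so counting error understates the error of a value. Libraries of 1 treatment differed beyond sampling noise (chi-square of 15.4 to 33.2 per gene).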

Additional observations from a re-analysis of the deposited data

How the results depend on the processing

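Over 612 refitted values of the 36 members in 17 settings, 550 kept direction and call. Under the stricter rule 5 cytosolic members rose, 0 fell, 0 mitochondrial members rose and 5 fell, among 1861 genes called in all. Cytosolic falls numbered 3 with library size alone, upper quartile scaling and each of the 4 fits of limma on log2(FPKM + pseudocount), and 1 to 2 with a library left out, where mitochondrial falls numbered 11 to 12. In the same order of settings the cytosolic median was 0.46, 0.52 and 0.45 to 0.46 (0.45 with a pseudocount of 1, 0.46 with 0.1 and 0.01), and 0.60 to 0.65 with a library left out. The mitochondrial median was -0.83 with library size alone, -0.78 with upper quartile scaling, -0.83 and -0.84 with pseudocounts of 0.1 and 0.01, and -0.75 to -0.63 with a library left out. DARS reversed to -0.11 (library size), -0.057 (upper quartile), -0.11 (limma with each pseudocount) and -0.037 without DMSO replicate 1 (-0.037 to 0.080 over the fits with a library left out), and HARS to -0.068, -0.014 and -0.13 (limma with each pseudocount). Members that share no exon base with another gene, a setting chosen after seeing the data, gave 7 cytosolic rises and 0 falls of 9, and 1 mitochondrial rise and 5 falls of 7, with a mitochondrial median of -0.33. There fewer genes were counted. DESeq2 gave no within-library ratios. The replicate block gave 14 cytosolic rises, 1 fall, 1 mitochondrial rise and 14 falls, with 7117 genes called. Same-numbered libraries had correlations of 0.0247, 0.121 and -0.0642 between their deviations, and not every library correlated best with its own number. Whether same-numbered libraries shared a culture or batch is not stated, and with so few libraries these correlations cannot decide it.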

Other observations

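Among other genes that prepare tRNA, more fell than rose. Of 19 genes for tRNA maturation and export 3 rose (15.8%) and 11 fell (57.9%), against 27.7% and 28.8% of all genes. Their median log2 fold change was -0.49, against -0.026 over all genes, with no test of the list. XPOT, the exporter of tRNA from the nucleus, was the main exception, with 20.4, 22.9 and 23.3 FPKM in DMSO and 49.3, 47.4 and 48.4 FPKM after MPM-1. Its treated libraries were all more than 2 times any control library (log2 fold change 1.28, edgeR adjusted p = 1.81e-06). RPP40 (0.61) and TSEN15 (0.35) also rose. The largest falls were in RPP25 (-2.29) and POP1 (-1.85), subunits of RNase P, which trims the 5′ end of tRNA precursors, and of the related RNase MRP, and in ELAC1 (-1.31), which acts at the 3′ end.

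Of 16 genes that modify tRNA, mainly in mitochondria, 3 rose (18.8%) and 9 fell (56.2%), with a median of -0.42. Over all genes 27.7% rose and 28.8% fell, and this list was not tested either. TRMT10C, a subunit of the mitochondrial RNase P, had 16.6, 21.4 and 24.8 FPKM in DMSO and 2.50, 9.52 and 5.70 FPKM after MPM-1. It fell by 1.68 on the log2 scale (adjusted p = 0.00309), with a wide spread between treated libraries. OSGEPL1 (-1.49) and TRMT61B (-0.80) followed. The rises were in YRDC (0.70), MTO1 (0.53) and HSD17B10 (0.25). For MTO1 the CPM was 36.1 to 38.7 in DMSO and 51.9 to 58.5 after MPM-1, while the FPKM of the treatments overlapped, with 5.07, 10.5 and 10.6 in DMSO and 7.09, 8.46 and 6.11 after MPM-1.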
